A study of Mus musculus with 10 samples.

Results

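Macrophages are recruited in number into many solid tumors, and the transcripts described here are those by which they are usually recognised and their state is judged. The set held 10 genes, taken by symbol from a fixed list, and all 10 were among the 29890 genes of the expression table. Each had a mean of at least 1 TPM (an abundance scaled by transcript length and by library) over the tumors and so was among the 15276 genes tested. RNA was measured in bulk in 10 subcutaneous tumors grown from B2905-M4, a mouse melanoma line, in female C57BL/6J mice that were 7 to 8 weeks old at injection. In 5 tumors the implanted cells carried Adamts7 overexpression, Adamts7 being a protease that is secreted and cleaves matrix proteins, and in 5 they carried a vector overexpression control. No tumor had received immunotherapy. Harvest fell on day 35 (2 Adamts7 tumors), day 45 (3 of either group) or day 50 (2 vector tumors); no day is tied to a tumor, so harvest day and group cannot be fully told apart. The hosts were ordinary immune-competent mice, and all 10 tumors came from 1 line.

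Macrophages depend on the growth factors CSF1 and IL34, which both signal through the receptor that Csf1r encodes. Activation by interferon-gamma and microbial products is classically marked by Nos2, and activation by interleukin 4 by Arg1 and Mrc1, although tumor macrophages commonly carry features of both. A further state, rich in lipid handling and phagocytosis genes, is marked by Trem2, Apoe and Spp1. Adgre1 encodes F4/80, the usual surface marker of mouse macrophages, Cd163 a scavenger receptor for haemoglobin complexes and Mertk a receptor for apoptotic cells.

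Adamts7 itself measured 88.5, 96.0, 78.2 and 74.8 TPM in the first 4 Adamts7 tumors but only 18.2 TPM where labelled Adamts7 5, and 6.49, 6.98, 28.3, 8.57 and 27.6 TPM with vector. The tumor labelled Adamts7 5 thus lay below vector tumors 3 and 5, and each group difference below takes its label as given. Vector tumors 3 and 5 also stood apart in their cell markers. The summed TPM of 7 melanocyte genes was 312 and 1909 there, against 8375 to 16291 in the other 3 vector tumors and 12469.7 to 22967 in the Adamts7 tumors. The summed TPM of 10 T and NK cell genes was 364 and 283 there, against 42.4 to 48.4 in the other vector tumors and 15.2 to 39.6 in the Adamts7 tumors. Results were therefore also obtained without vector tumors 3 and 5, and values by tumor come first for each gene. TPM keeps no depth, so the read depth behind each value is unknown.

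The promoters of a few of these genes are shown first, because a myeloid factor motif can be looked for in them. RefSeq promoters on build GRCm38.p6, older than the mm39 named for the expression data, were matched for 6 of the 10 genes (Mrc1, Mertk, Spp1, Cd163, Apoe and Trem2) with 9 start sites. Adgre1, Csf1r, Arg1 and Nos2 were not matched and so were not searched. Only the 250 bases before a start were searched. The motif was GAGGAA or its reverse TTCCTC, the core bound by PU.1, a transcription factor of myeloid cells encoded by Spi1. It matched at 5 of the 9 starts, in 4 of the 6 genes, and at 23.3% of all 32851 RefSeq starts. The other letters searched, CACGTG (read alike on both strands) and TTCNNNGAA on both strands, matched at none of the 9 starts and at 6.02% and 7.02% of all starts. No motif overlapped another in these windows. Printed are the mannose receptor gene Mrc1, with 3 matches 180, 167 and 35 bases before its start, Spp1, with 1 match 113 bases before its first start, Trem2, with 1 match 40 bases before its start, and Mertk, which like Cd163 had none. Capitals mark the motif.
Mrc1 (chr2:14229164-14229413, plus strand): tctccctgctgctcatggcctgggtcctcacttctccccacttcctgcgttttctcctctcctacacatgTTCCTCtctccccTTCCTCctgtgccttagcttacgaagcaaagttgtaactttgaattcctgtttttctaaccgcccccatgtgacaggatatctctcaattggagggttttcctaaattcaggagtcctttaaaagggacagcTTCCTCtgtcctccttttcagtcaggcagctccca
Spp1 (chr5:104434861-104435110, plus strand): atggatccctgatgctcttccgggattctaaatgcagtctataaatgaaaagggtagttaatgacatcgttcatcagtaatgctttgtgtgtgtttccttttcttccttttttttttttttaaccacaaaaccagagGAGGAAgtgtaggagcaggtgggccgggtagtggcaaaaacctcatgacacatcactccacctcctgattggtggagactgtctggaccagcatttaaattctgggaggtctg
Trem2 (chr17:48346151-48346400, plus strand): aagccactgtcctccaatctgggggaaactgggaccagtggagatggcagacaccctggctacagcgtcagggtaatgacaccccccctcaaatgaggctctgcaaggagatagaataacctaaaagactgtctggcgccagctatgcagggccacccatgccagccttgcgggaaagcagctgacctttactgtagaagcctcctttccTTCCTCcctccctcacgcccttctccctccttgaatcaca
Mertk (chr2:128698665-128698914, plus strand): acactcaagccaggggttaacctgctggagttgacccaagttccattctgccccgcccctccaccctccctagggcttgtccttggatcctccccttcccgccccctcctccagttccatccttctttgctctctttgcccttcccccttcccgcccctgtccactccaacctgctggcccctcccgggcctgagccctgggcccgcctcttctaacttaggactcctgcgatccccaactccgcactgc

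None of the 10 genes passed the test between the groups. Limma on log2(TPM + 1) over all tested genes called 0 of 10 at an adjusted p of 0.05, in a comparison where 0.223% of all genes were called. At an unadjusted p of 0.05, 1 of the 10, Trem2, passed, where 20.2% of all tested genes did and 15.3% did so in its direction, lower, and in none of the 10 did the groups fail to overlap, where 4.89% of all genes separated. Of the 10 log2 fold changes, 7 were negative (lower in Adamts7 tumors) with a median of -0.33, beside a median of -0.10 and 60.2% negative over all tested genes. The authors' deposited table, made with DESeq2, likewise gave 0 of the 10 an adjusted p under 0.05, where it called 7.96% of the genes with an adjusted p. In that table Trem2 and Nos2 had unadjusted p-values of 0.0140 and 0.0189. The overexpressed gene Adamts7 itself was not called by limma, with a log2 fold change of 2.21 (SE 0.54, limma adjusted p = 0.104). The deposited table gave Adamts7 2.32 (SE 0.52, DESeq2 adjusted p = 0.000817). A gene left uncalled by limma here can therefore still differ between the groups. In these bulk samples, fewer macrophages, less RNA of a gene per macrophage and a difference in RNA from other cells cannot be told apart.

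The order of the levels was led by the lipid-associated genes. Over the 10 tumors Apoe had a mean of 1283 TPM, Spp1 330 TPM, Trem2 106 TPM, Csf1r 55.8 TPM, Adgre1 40.3 TPM, Arg1 34.3 TPM, Mrc1 24.3 TPM, Mertk 22.2 TPM, Nos2 4.48 TPM and Cd163 3.16 TPM. The first 5 genes kept this order in each of the 10 tumors. Further down, Adgre1 was above Arg1 in 8 of 10 tumors and Mertk above Nos2 in 9. The remaining neighbours changed places between tumors, and their means differed by less than the spread between tumors. Arg1 was above Mrc1 in 6 of 10 tumors, Mrc1 above Mertk in 4 and Nos2 above Cd163 in 6. The mean of Apoe was higher than that of 99.6% of listed genes, whereas Cd163 stood above 58.7% of them.

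**Figure D1:**
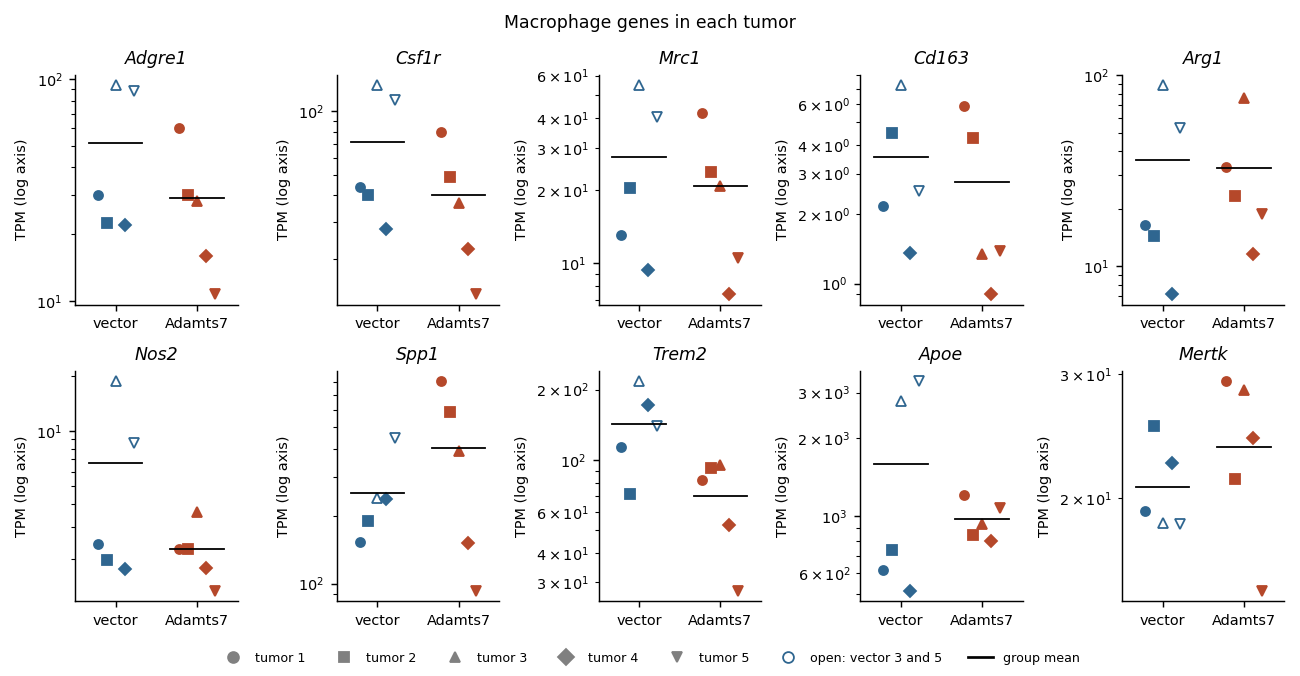
TPM of the 10 macrophage genes in each tumor, on a log axis per gene; each point is 1 tumor, its shape gives the tumor number, open points are vector tumors 3 and 5, and black lines are group means. Adgre1, Csf1r and Mrc1 were highest in vector tumor 3 and the groups overlapped in all 10 genes.

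The identity markers were high in the same few tumors of each group. Adgre1 measured, in order of tumor number, 60.6, 30.2, 28.2, 16.0 and (labelled Adamts7 5) 10.7 TPM with Adamts7 and 30.2, 22.4, 94.2, 21.98 and 88.1 TPM with vector. Vector tumors 3 and 5 were the highest, Adamts7 tumor 1 came next, and the tumor labelled Adamts7 5 was the lowest. The means were 29.1 ± 19.4 and 51.4 ± 36.5 TPM (SD, n = 5 each), with a log2 fold change of -0.73 (SE 0.54, limma adjusted p = 0.436). Without vector tumors 3 and 5 the log2 fold change of Adgre1 was 0.01 (SE 0.47, limma adjusted p = 0.999).

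Csf1r followed Adgre1 closely. It measured, in order of tumor number, 79.7, 48.8, 36.9, 22.4 and (labelled Adamts7 5) 13.7 TPM with Adamts7 and 43.7, 40.0, 133, 27.7 and 113 TPM with vector. Its order of tumors was thus also led by vector tumors 3 and 5, with the tumor labelled Adamts7 5 last. The means were 40.3 ± 25.8 and 71.4 ± 47.8 TPM (SD, n = 5 each), and the log2 fold change was -0.79 (SE 0.53, limma adjusted p = 0.404) with all tumors and -0.10 (SE 0.49) without vector tumors 3 and 5. On mean-centred log2(TPM + 1), Adgre1 and Csf1r differed by a root mean square of 0.15 over the 10 tumors, the smallest of the 45 pairs among the 10 genes. This distance, in which 0 is the same pattern, is a description without a test.

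The ligands of that receptor, Csf1 and Il34, were measured with the other partner genes. Csf1 was between 8.14 and 37.0 TPM in Adamts7 tumors and between 21.0 and 65.9 TPM in vector tumors (limma adjusted p = 0.303). Il34 was between 2.46 and 16.4 TPM in Adamts7 tumors and between 6.01 and 33.7 TPM in vector tumors (limma adjusted p = 0.473). Both were highest in vector tumors 3 and 5, and the groups overlapped in both.

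Among the scavenger receptors, Mrc1 measured, in order of tumor number, 42.1, 23.9, 20.9, 7.42 and (labelled Adamts7 5) 10.5 TPM with Adamts7 and 13.1, 20.5, 54.8, 9.30 and 40.4 TPM with vector. Adamts7 tumor 1 was as high as vector tumor 5, and Adamts7 tumor 4 was the lowest of all. The log2 fold change of Mrc1 was -0.33 (SE 0.54, limma adjusted p = 0.738), and it turned to 0.35 (SE 0.51, limma adjusted p = 0.816) without vector tumors 3 and 5. Cd163 was low everywhere. It measured, in order of tumor number, 5.89, 4.30, 1.35, 0.900 and (labelled Adamts7 5) 1.38 TPM with Adamts7 and 2.16, 4.49, 7.27, 1.36 and 2.51 TPM with vector. Unlike Adgre1, Cd163 was not high in vector tumor 5, which lay below Adamts7 tumors 1 and 2. Its log2 fold change was -0.32 (SE 0.44, limma adjusted p = 0.685).

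Arg1 and Nos2 encode enzymes that use the same substrate, arginine, to make ornithine and nitric oxide. Arg1 measured, in order of tumor number, 33.3, 23.4, 76.2, 11.6 and (labelled Adamts7 5) 18.8 TPM with Adamts7 and 16.4, 14.5, 89.1, 7.16 and 53.1 TPM with vector. Adamts7 tumor 3 stood between vector tumors 3 and 5, and 4 of the 5 Adamts7 tumors lay above vector tumors 1, 2 and 4. The means were nearly equal, at 32.6 ± 25.6 and 36.1 ± 34.6 TPM (SD, n = 5 each), with a log2 fold change of 0.12 (SE 0.67, limma adjusted p = 0.933). The authors' deposited table gave Arg1 the other sign, with a log2 fold change of -0.03 and a standard error of 0.65 (DESeq2 adjusted p = 0.986). Without vector tumors 3 and 5 the limma log2 fold change of Arg1 was 1.09 (SE 0.54, limma adjusted p = 0.452).

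Nos2 measured, in order of tumor number, 2.26, 2.27, 3.61, 1.79 and (labelled Adamts7 5) 1.34 TPM with Adamts7 and 2.40, 1.98, 18.7, 1.75 and 8.66 TPM with vector. Its difference between the groups lay in vector tumors 3 and 5, while the other 8 tumors stayed between 1.34 and 3.61 TPM. The means were 2.25 ± 0.850 and 6.70 ± 7.31 TPM (SD, n = 5 each), with a log2 fold change of -0.81 (SE 0.52, limma adjusted p = 0.383). That of Nos2 without vector tumors 3 and 5 was 0.07 (SE 0.24, limma adjusted p = 0.939). The authors' deposited table gave Nos2 a log2 fold change of -1.44 with a standard error of 0.61 (adjusted p = 0.128). As a difference of log2(TPM + 1) values within a tumor, Arg1 stood above Nos2 in all 10 tumors, by 2.17 to 4.06 in the Adamts7 tumors and by 1.57 to 2.49 in the vector tumors.

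Of 8 other tested genes of arginine and nitric oxide metabolism, 0 were called and 2 had negative log2 fold changes (median 0.11). Slc7a2, an arginine transporter, ranged from 5.18 to 13.5 TPM with Adamts7, measured 7.47 and 5.14 TPM in vector tumors 1 and 4, and reached 177, 293 and 154 TPM in vector tumors 2, 3 and 5. Its log2 fold change of -2.46 came with a standard error of 1.05 (limma adjusted p = 0.227), and the split within the vector group did not follow that of Arg1 or Nos2, which were low in vector tumor 2. The argininosuccinate lyase gene Asl was at 69.1 ± 7.31 and 47.0 ± 15.2 TPM (SD, n = 5 each; limma adjusted p = 0.163). The transporter gene Slc7a1 and the endothelial synthase gene Nos3 had log2 fold changes of 0.56 and 0.16.

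**Figure D2:**
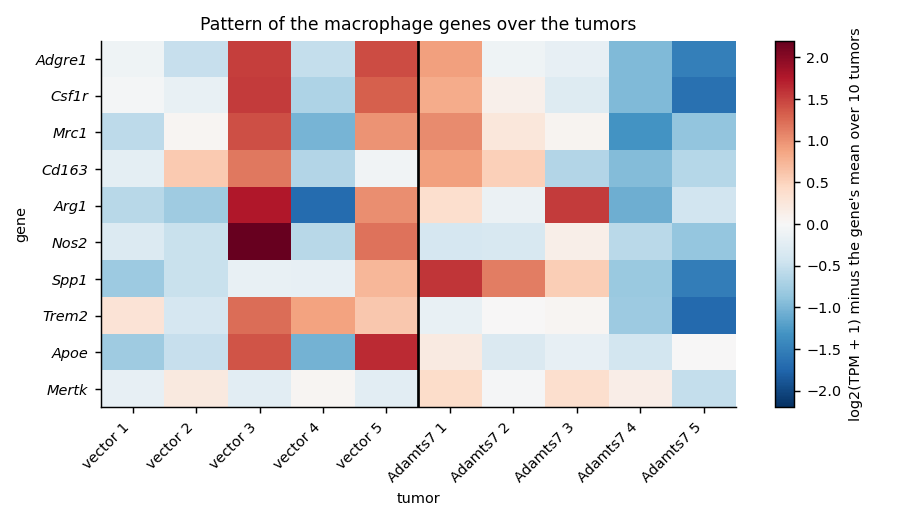
Colour gives log2(TPM + 1) of each gene minus its mean over the 10 tumors, with vector tumors on the left of the black line. Most genes were high in vector tumors 3 and 5, whereas Spp1 was highest in Adamts7 tumors 1 and 2 and Mertk was nearly even.

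Spp1, which encodes the secreted integrin ligand osteopontin, had another order of tumors. It measured, in order of tumor number, 803, 586, 392, 152 and (labelled Adamts7 5) 93.0 TPM with Adamts7 and 154, 190.2, 241, 238 and 449 TPM with vector. Adamts7 tumors 1 and 2 lay above every vector tumor, and Adamts7 tumor 4 and the tumor labelled Adamts7 5 below every one. The means were 405 ± 297 and 254 ± 114 TPM (SD, n = 5 each), a 1.59-fold ratio, and the log2 fold change of 0.36 (SE 0.56) did not pass (limma adjusted p = 0.725). The authors' deposited table gave Spp1 a log2 fold change of 0.76 with a standard error of 0.51 (DESeq2 adjusted p = 0.374). Of the receptors of osteopontin, Cd44 was at 211 ± 18.0 and 152 ± 55.7 TPM (SD, n = 5 each, limma adjusted p = 0.238). Vector tumors 3 and 5 were the lowest in Cd44, at 80.3 and 108 TPM. Without them its log2 fold change was 0.15 (SE 0.11). The integrin genes Itgav, Itgb1 and Itgb3 had log2 fold changes of -0.23, -0.12 and 0.63 with all tumors, and none was called.

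Trem2, a lipid-sensing receptor, showed the lowest unadjusted p-value of the 10 genes. It measured, in order of tumor number, 82.2, 92.8, 95.0, 52.7 and (labelled Adamts7 5) 27.6 TPM with Adamts7 and 114, 71.2, 217, 171 and 139 TPM with vector. Vector tumor 2 was the only vector tumor inside the Adamts7 range, and the remaining 4 vector tumors lay above every Adamts7 tumor. The means were 70.1 ± 29.1 and 143 ± 55.4 TPM (SD, n = 5 each), a 2.03-fold ratio, and the log2 fold change was -1.05 (SE 0.38, limma adjusted p = 0.181). The authors' deposited table gave Trem2 a log2 fold change of -0.91 with a standard error of 0.37 (adjusted p = 0.107).

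The negative sign of Trem2 did not rest on the tumors that stood apart. Its log2 fold change was -0.80 (SE 0.43, limma adjusted p = 0.499) without vector tumors 3 and 5 and -0.50 (SE 0.31, limma adjusted p = 0.379) on also dropping the tumor labelled Adamts7 5. Day 45 could hold any 3 tumors of either group, and over the 100 choices the mean log2 difference of Trem2 lay between -1.79 and -0.21. The other 9 genes each had both signs over those sets. Neither fitted value passed the test, and the differences over the choices of day 45 tumors were not tested.

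Apoe, the gene of the lipid carrier apolipoprotein E, measured, in order of tumor number, 1211, 848, 931, 803 and (labelled Adamts7 5) 1070.1 TPM with Adamts7 and 619, 741, 2777, 515 and 3318 TPM with vector. All Adamts7 tumors lay above vector tumors 1, 2 and 4 and below vector tumors 3 and 5. The means were 972 ± 168 and 1594 ± 1343 TPM (SD, n = 5 each), with a log2 fold change of -0.28 (SE 0.51, limma adjusted p = 0.764). Without vector tumors 3 and 5 the log2 fold change of Apoe turned to 0.64 (SE 0.17, limma adjusted p = 0.188). Of the 10 genes it alone had an unadjusted p under 0.05 in that fit, as did 12.5% of all tested genes; 0 of the 10 were called there, where 0.183% of all genes were. In the tumor labelled Adamts7 5, which was lowest in Adgre1, Csf1r and Trem2, Apoe was second highest of the Adamts7 group.

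Mertk, the efferocytosis receptor gene, varied least. It measured, in order of tumor number, 29.3, 21.3, 28.5, 24.3 and (labelled Adamts7 5) 14.8 TPM with Adamts7 and 19.2, 25.3, 18.4, 22.4 and 18.4 TPM with vector. The highest tumor was 1.98 times the lowest, against 6.44 to 14.0 times for the other 9 genes. Mertk was among the lower values in vector tumors 3 and 5, where Adgre1 and Csf1r were highest. Its log2 fold change was 0.15 (SE 0.19, limma adjusted p = 0.649).

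The related genes had other patterns. Axl, a related receptor, reached 233 and 222 TPM in vector tumors 3 and 5 but only 51.1 to 59.2 TPM in vector tumors 1, 2 and 4, while Tyro3, the remaining receptor of the family, measured 2.65 and 4.54 TPM there against 14.9 to 24.7 TPM. In the Adamts7 tumors Axl lay between 20.9 and 159 TPM and Tyro3 between 16.9 and 22.5 TPM. Mfge8, a bridging protein of apoptotic cells, was at 351 ± 33.8 TPM in Adamts7 and 291 ± 29.3 TPM in vector tumors (SD, n = 5 each). Its groups did not overlap, and it did not pass over all genes (limma adjusted p = 0.215).

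Levels were then set against those of 6 other macrophage genes, namely the complement genes C1qa, C1qb and C1qc, the lysosomal glycoprotein gene Cd68, the Fc receptor gene Fcgr1 and Aif1. Their mean log2(TPM + 1) was 6.44 ± 0.87 in Adamts7 and 7.17 ± 0.98 in vector tumors (SD, n = 5 each). It was highest in vector tumors 3 and 5, at 8.26 and 8.22, and lowest in the tumor labelled Adamts7 5, at 5.23. Cd68 alone of the 6 was lower in vector tumors 3 and 5 than in the other vector tumors. Cd68 measured 162 and 158 TPM in vector tumors 3 and 5, below the 218 to 411 TPM of vector tumors 1, 2 and 4, whereas C1qa measured 1197 and 1072 TPM there, above their 212 to 303 TPM. The level was therefore also taken without Cd68, a choice made after seeing these values. Aif1 was kept in both levels, although its gap was wider than that of C1qa. It measured 200 and 237 TPM in vector tumors 3 and 5 against 15.6 to 27.3 TPM in vector tumors 1, 2 and 4.

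Relative to the 6 genes, Adgre1 and Csf1r varied less than on their own (SD over the tumors 0.19 against 0.99 and 0.18 against 1.00). Their log2 difference from the 6-gene level lay between -2.07 and -1.45 for Adgre1 and between -1.55 and -0.93 for Csf1r over the 10 tumors. Without Cd68 the ranges were wider, at -1.93 to -1.01 for Adgre1 and -1.57 to -0.49 for Csf1r. Vector tumors 3 and 5 were then the lowest for both genes. Spp1 stood 1.32 to 2.35 above the level in the Adamts7 tumors and -0.34 to 1.55 in the vector tumors, where only vector tumor 4 reached into the Adamts7 range. Without Cd68, Spp1 stood 1.52 to 2.72 above the level of the remaining genes with Adamts7 and -0.52 to 1.84 with vector. Trem2 lay between -1.07 and -0.15 from the 6-gene level in the Adamts7 tumors, inside the vector range of -1.09 to 1.08. Its group means differed by -0.32 on this measure and by -0.13 without Cd68. Mertk was lowest relative to the 6 genes in vector tumors 3 and 5, at -3.98 and -3.94, and between -2.53 and -1.24 in the other 8 tumors. Apoe was highest relative to them in the tumor labelled Adamts7 5, at 4.83, and between 2.66 and 3.75 in the other 9 tumors.

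**Figure D3:**
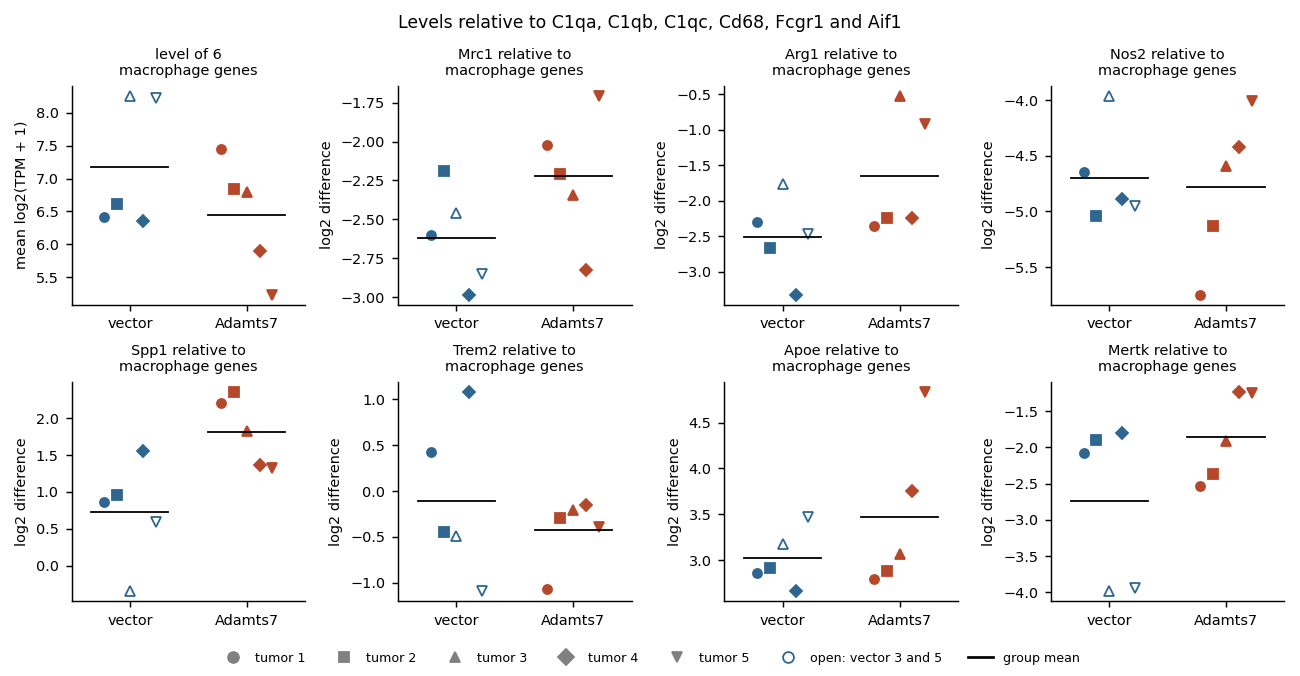
The first panel gives the mean log2(TPM + 1) of 6 macrophage genes by tumor, and the others log2(TPM + 1) of a gene minus that mean; points are tumors, open points are vector tumors 3 and 5, and lines are group means. Spp1 averaged 1.81 above the macrophage genes in Adamts7 tumors and 0.72 in vector tumors, with overlap.

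With the 6-gene level as a second term in the limma fit, 0 of the 10 genes were called, where 0.655% of all genes were. Only Spp1 had an unadjusted p under 0.05, as did 17.4% of all tested genes. Its log2 fold change at equal macrophage gene level was 1.01 (SE 0.37, limma adjusted p = 0.207), and 1.00 (SE 0.42, adjusted p = 0.269) with the level taken without Cd68. Arg1 had 0.88 (SE 0.46, adjusted p = 0.350) and Trem2 -0.68 (SE 0.31, adjusted p = 0.291) in the 6-gene fit. The differences of Adgre1 and Csf1r were 0.01 (SE 0.15) and -0.04 (SE 0.15) in it, and that of Nos2 was -0.22 (SE 0.36).

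**Figure D4:**
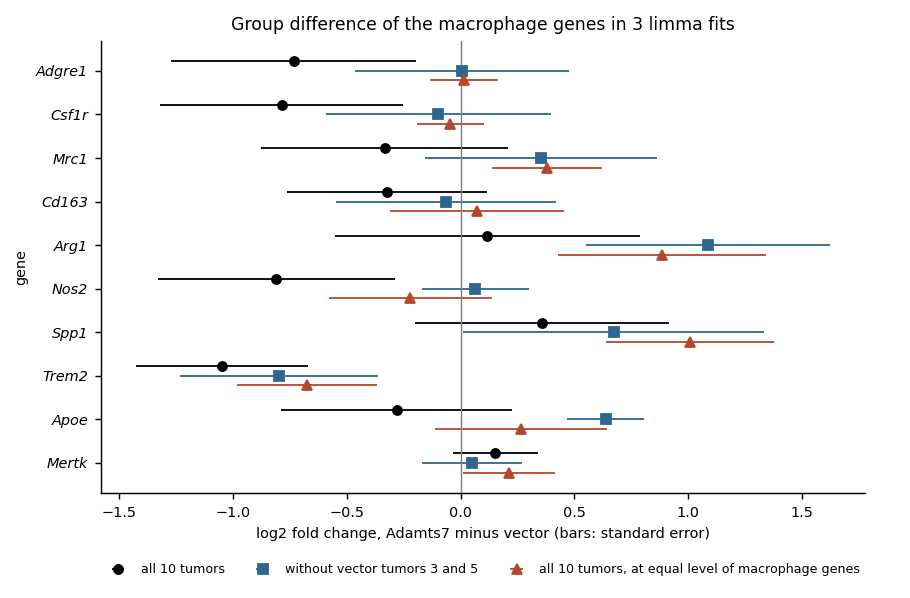
Points are log2 fold changes (Adamts7 minus vector) and bars are standard errors from 3 limma fits: all 10 tumors, without vector tumors 3 and 5, and all tumors at equal level of 6 macrophage genes. Trem2 was negative and Spp1 positive in all 3, and none of the points passed the test.

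The list of other identity genes also shifted when vector tumors 3 and 5 were left out. Of 16 other identity genes, 14 had negative log2 fold changes and 0 were called; the median was -0.76 with all tumors and 0.08 without vector tumors 3 and 5. Lyz2, the macrophage lysozyme gene, reached 3010 and 3677 TPM in vector tumors 3 and 5 but ranged from 121 to 387 TPM elsewhere (limma adjusted p = 0.229). Marco, a scavenger receptor gene, was at 0.722 ± 0.518 and 4.14 ± 3.25 TPM (SD, n = 5 each; limma adjusted p = 0.158). Aif1 and the cathepsin gene Ctss had log2 fold changes of -1.90 and -1.45. Spi1, named here because its motif was searched, lay between 5.80 and 41.5 TPM in Adamts7 tumors and between 16.1 and 90.0 TPM in vector tumors (limma adjusted p = 0.372).

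Genes of classical activation were lower in Adamts7 tumors on average. All 13 tested of 16 were negative in log2 fold change (median -1.26), against -0.37 without vector tumors 3 and 5; 0 were called. Cxcl9 and Cxcl10, chemokine genes induced by interferon-gamma, separated the groups without overlap, with Cxcl9 at 15.5 ± 6.31 and 174 ± 165 TPM (SD, n = 5 each; limma adjusted p = 0.0840). At equal macrophage gene level Cxcl9 passed, with a log2 fold change of -2.11 (SE 0.37, limma adjusted p = 0.0391). It did not pass on leaving out Adamts7 tumor 2 or vector tumor 4, where that fit called 0 genes. With the group as only term and without vector tumors 3 and 5, its log2 fold change was -1.81 (SE 0.34, limma adjusted p = 0.0906). Ifng was at 0.730 ± 0.453 and 12.7 ± 14.1 TPM (SD, n = 5 each; limma adjusted p = 0.135). The costimulatory gene Cd86 was at 3.30 ± 2.00 and 13.2 ± 11.0 TPM (SD, n = 5 each; limma adjusted p = 0.178).

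Genes of alternative activation gave 12 negative values of 13 tested and a median of -0.72, with 0 called. The median was 0.16 without vector tumors 3 and 5, with 5 of 13 negative. Tgm2, a transglutaminase gene, was at 43.4 ± 17.6 and 81.9 ± 23.6 TPM (SD, n = 5 each; limma adjusted p = 0.151). Stat6, the transcription factor of interleukin 4 signalling, was at 149 ± 23.5 and 106 ± 21.2 TPM (SD, n = 5 each; limma adjusted p = 0.171). The chemokine gene Ccl17 and the signalling inhibitor Socs2 had log2 fold changes of -1.54 and -0.72.

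Lipid-associated macrophage genes had a median of -0.14 over 16 tested, 10 of them negative and 0 called. Without vector tumors 3 and 5 the median was -0.39 with 13 negative. The list was mixed. Gpnmb, Fabp5, Lgals3, Ctsb, Ctsd, Lipa and Plin2 were lowest in vector tumors 3 and 5, as was the summed TPM of melanocyte genes. Gpnmb measured 134 and 343 TPM there against 1758 to 2964 TPM in vector tumors 1, 2 and 4. Tyrobp, Lpl, Cd9, Abcg1, Apoc2 and Hcst were highest there. Which cells gave this RNA was not tested. Fabp4, a fatty acid binding protein gene, measured 86.1, 33.8, 11.1, 170.1 and 19.7 TPM with vector, in order, and 10.5 to 18.5 TPM with Adamts7 (limma adjusted p = 0.215). It was thus high in vector tumors 1 and 4, where Trem2 was 114 and 171 TPM, and low in vector tumor 3, where Trem2 was highest. Lpl, the lipoprotein lipase gene, was at 6.38 ± 3.39 and 29.0 ± 24.0 TPM (SD, n = 5 each; limma adjusted p = 0.152). The cathepsin gene Ctsl and the tetraspanin gene Cd9 had log2 fold changes of -0.48 and -0.81.

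Tissue-resident type macrophage genes did not share the negative values. Of 8 tested, 3 were negative and 0 were called, with a median of 0.07, and 0 of 8 were negative without vector tumors 3 and 5 (median 0.42). Cbr2, a carbonyl reductase gene, was at 48.3 ± 38.0 and 26.3 ± 7.72 TPM (SD, n = 5 each; limma adjusted p = 0.615). Stab1, Cd209f and Cd209g had log2 fold changes of -0.37, 0.22 and -0.41. Timd4 and Vsig4 of this list were listed at 0 in at least 1 tumor and were not tested.

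**Figure D5:**
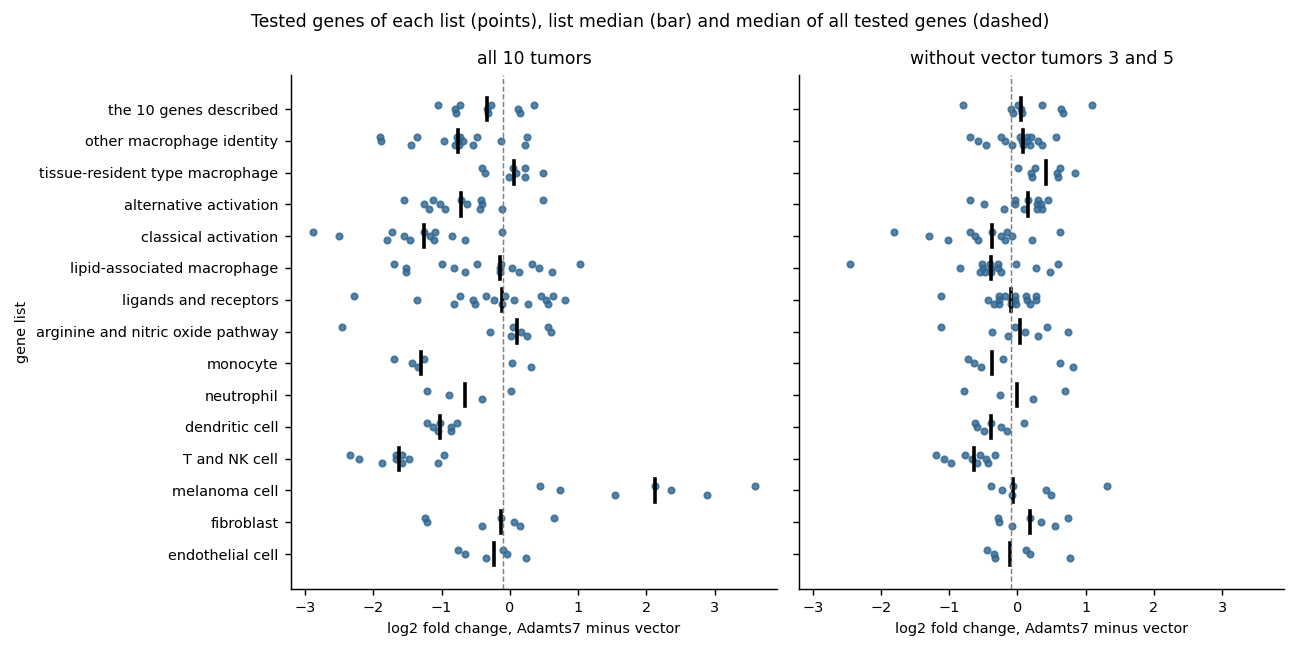
Each point is the log2 fold change (Adamts7 minus vector) of 1 tested gene, black bars are list medians and the dashed line is the median of all tested genes, on the left with all 10 tumors and on the right without vector tumors 3 and 5. The median of the 10 genes went from -0.33 to 0.06 and that of the T and NK cell genes from -1.62 to -0.63. Vector tumors 3 and 5 were set apart by the T and NK cell and melanocyte genes, so the shifts of those lists follow from that choice.

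Markers of other cells that can be present in a tumor were set beside these values. The summed TPM of 6 monocyte genes was between 38.1 and 263 in Adamts7 tumors and between 77.5 and 546 in vector tumors, 4 of 6 had negative log2 fold changes, and Ccr2, the monocyte chemokine receptor, was at 8.80 ± 6.49 and 38.3 ± 34.9 TPM (SD, n = 5 each; limma adjusted p = 0.188). The 8 dendritic cell genes summed to between 10.0 and 28.2 TPM in Adamts7 and between 16.7 and 129 TPM in vector tumors, and 7 of 7 tested were negative. Of 10 neutrophil genes, 9 were listed in the expression table and Ly6g was not. Of the 9 listed, 4 were tested and 3 were negative. The 9 summed to between 15.4 and 53.6 TPM in Adamts7 and between 31.2 and 75.3 TPM in vector tumors. S100a8, S100a9, Cxcr2, Retnlg and Mmp8 were listed at 0 in some tumors. Most of the sum was G0s2 in each tumor. In the tumor labelled Adamts7 5 it was 52.5 of 53.6 TPM, with S100a8 at 0. Fibroblast genes summed to between 213 and 1097 TPM and between 283 and 822 TPM, with 4 of 7 negative. Endothelial genes summed to between 39.1 and 98.4 TPM and between 48.4 and 107 TPM, with 5 of 6 negative. T and NK cell genes had 10 of 10 negative (median -1.62) and melanocyte genes 0 of 7 (median 2.13, against -0.07 without vector tumors 3 and 5). Vector tumors 3 and 5 were set apart by the T and NK cell and melanocyte genes. A shift of those medians without them is therefore not a separate result. The 17 tested ligand and receptor genes had 10 negative. None of these lists had a called gene, and their part in the values of the 10 genes was not tested.

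For each gene the 3 genes with the most similar mean-centred pattern over the 10 tumors were looked up among the tested genes outside the set of 10 and without predicted genes, pseudogenes and receptor segments, by the same root mean square difference. Vsir, an immune checkpoint gene, was nearest to Csf1r (0.11) and second nearest to Adgre1 (0.15), and Nckap1l, a cytoskeletal gene of blood cells, was among the 3 for both (0.16 from Adgre1 and 0.17 from Csf1r). Pik3ap1 was nearest to Adgre1 (0.14) and Ebi3, a cytokine subunit, was second for Csf1r (0.15). Tgm2 (0.25), Pnp (0.28) and Xdh (0.28), the last 2 genes of purine breakdown, were nearest to Trem2. Pnp was between 36.2 and 98.9 TPM in Adamts7 tumors and between 101 and 173 TPM in vector tumors, without overlap.

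Ms4a8a (0.19), Ly6e (0.19) and Gda (0.22) were nearest to Mrc1, Igfbp6 (0.28), Ace (0.29) and Tnxb (0.29) to Cd163, and Npas4 (0.22), Dysf (0.24) and Sorl1 (0.25) to Nos2. Serpinf1 (0.32), F2rl1 (0.33) and Ssc5d (0.36) were nearest to Spp1, and Hoxa10 (0.21), Glce (0.28) and Abhd11os (0.31) to Apoe. Wnt11 (0.47), Hivep3 (0.48) and Cd300lb (0.52) were nearest to Arg1, further off than those of the other 9 genes. Zgpat (0.10), Arfrp1 (0.11) and Riox1 (0.11) were nearest to Mertk, genes that, like it, varied little.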

How the data were processed

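The authors deposited log2 values, log2(TPM + 1), for 29890 gene symbols in 10 tumors, and RSEM and mm39 are named in the submitters' processing notes. Raised back to TPM, the columns summed to between 995286 and 998019. The annotation and aligner are not given in the sources used here, and TPM keeps no depth. The authors' deposited comparison table lists per gene an averaged, normalized signal, the log2 fold change, the score of the test and p-values; the authors made it with DESeq2, per the submitters' processing notes, and 28805 of 30040 gene identifiers were paired with symbols. Antigen receptor measures were not used here. One gene that the naming rule selects is not reported here.

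Genes averaging 1 TPM or more entered limma 3.58.1 (R 4.3.3) as log2(TPM + 1), pseudocount 1 TPM, with a trended prior variance, the group as only term and Benjamini-Hochberg adjustment over all tested genes at 0.05. Fold changes are on that scale, which understates low genes. A second fit added the mean of 6 macrophage genes as a term. The fit was tested on simulated data. Whether tumors came from separate cell preparations is not stated, so p-values measure the spread between these tumors. The genes, lists, tests and alternatives were chosen with earlier results of these data known. Named besides the 10 genes are Adamts7 and up to 4 genes of each list with the smallest p. The 3 nearest in pattern to each gene are also named. Chosen after their values were seen were Spi1, Csf1, Il34, Axl, Tyro3, Cd68, C1qa, Itgav, Itgb1 and Itgb3. So were Gpnmb, Fabp5, Lgals3, Ctsb, Ctsd, Lipa, Plin2, Tyrobp, Abcg1, Apoc2 and Hcst. Values for tumors left out were refitted, and the 100 sets of the shared harvest day were taken as mean differences. Alternatives covered the pseudocount, the filter, scaling, variance model, weights per tumor and a replicate block. Python 3.11.15 with pandas 2.3.3 and matplotlib 3.10.9 joined and drew the values.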

Additional observations from a re-analysis of the deposited data

Results flagged for a closer look

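Of 46 sets of 5 values examined, 1 held a tumor far from its group, and chance gives about 1 in 20. Relative to the 6 macrophage genes, Trem2 stood at -1.07 on the log2 scale in Adamts7 tumor 1, while the next lowest Adamts7 tumor was at -0.39. The gap was 0.738 of the group's range.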

How the results depend on the processing

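None of the 10 genes was called in any alternative fit. Over the 22 alternative fits of the group difference Trem2 lay between -1.27 and -0.50 (adjusted p 0.113 to 0.499) and Spp1 between 0.0099 and 1.10 (adjusted p 0.251 to 0.993); at equal macrophage gene level they lay between -0.88 and -0.36 and between 0.70 and 1.31. Over the 100 choices of day 45 tumors, which were not tested, Trem2 lay between -1.79 and -0.21 and Spp1 between -0.73 and 1.57, negative in 25. The count of all genes called, 34 with all tumors (4 higher, 30 lower), was 10 with no filter on low values, 1219 with tumor weights, 800 without vector tumors 3 and 5 and the tumor labelled Adamts7 5, and 6 to 655 with 1 tumor left out (655 without the tumor labelled Adamts7 5; 6 without Adamts7 tumor 3 or 4 or vector tumor 4 or 5, 7 without Adamts7 tumor 2, 8 without vector tumor 3 and 15 without Adamts7 tumor 1). Median-of-ratios scaling gave 8 higher and 21 lower, and quantile normalization 10 higher and 20 lower; they moved the median of all genes from -0.10 to 0.01 and 0.04. At equal macrophage gene level 100 genes were called, and 0 (without Adamts7 tumor 2 or vector tumor 4) to 2020 (without the tumor labelled Adamts7 5) with 1 tumor left out. The causes were not tested.

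With the replicate number as a block 0 genes were called by limma (3028 at an unadjusted p under 0.05). Same-numbered tumors correlated at -0.28 to 0.26, and 1 of 5 Adamts7 and 1 of 5 vector tumors correlated best with their own number, so the numbers were not taken as pairs.

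Several log2 fold changes changed sign. Without vector tumors 3 and 5 they were 0.0056 for Adgre1, 0.35 for Mrc1, 0.065 for Nos2 and 0.64 for Apoe. Leaving out the tumor labelled Adamts7 5 too gave 0.29 for Adgre1, 0.21 for Csf1r, 0.53 for Mrc1, 0.052 for Cd163, 0.17 for Nos2 and 0.60 for Apoe. Tumor weights gave 0.28 for Mrc1 and 0.36 for Apoe. With 1 tumor left out Arg1 ranged from -0.29 (without vector tumor 4) to 0.57, and Apoe from -0.58 to 0.095 (without vector tumor 5). At equal macrophage gene level the ranges were -0.094 to 0.14 for Adgre1, -0.14 to 0.087 for Csf1r, -0.17 to 0.32 for Cd163 and -0.38 to 0.14 for Nos2, and without vector tumors 3 and 5 that of Cd163 was -0.052 and that of Nos2 0.070. The causes were not tested. TPM holds no read depth, so counting error could not be separated from the spread between tumors.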
